A study of Rattus norvegicus with 12 samples.

Results

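The transcripts described here are the rat long non-coding RNAs that the array design infers from mouse orthologs, and they are recognised by probe identifiers that start with MR. Of 24684 gene probes on the array, 4407 carried such an identifier, each with 1 probe printed as 3 spots, and 3435 of the 4407 passed the filter of at least 3 arrays with signal well above background and were tested. Membership rested on the identifier and, for the tested set, on the signal, and no difference between groups was used. The identifiers have the form of a mouse transcript record after the letters MR: 3588 of an AK record, 685 of a uc record, 61 of a BC record, 46 of an NR record and 27 of other records. None of the 4407 identifiers matched a symbol or accession in the RefSeq tables used for gene names (0 matched), so the transcripts are named by identifier alone, and their positions, neighbouring genes and sequences are not given in the sources used here.

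RNA came from veins of male rats, on 12 single-colour Agilent arrays with 3 arrays per group. The day 0 group was vein of rats that had no operation, and the other groups were vein grafts taken 7, 14 and 28 days after the external jugular vein had been bypassed into the carotid artery. The labels name no strain, age, allele or drug, and the day 0 rats had no sham operation, so the graft, the surgery and the time since it cannot be told apart. Replicate numbers here are given in accession order and only name the arrays. Nothing in the labels states that each array held a separate animal, so the spread behind each p-value is that between these arrays and may be technical.

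Long non-coding RNAs are transcripts longer than most regulatory RNAs that are not translated into a known protein. Some act in the nucleus by guiding chromatin or splicing factors to genes, others act in the cytoplasm by binding mRNAs, proteins or microRNAs, and many have no known function. In vessel walls several are known to be tied to the smooth muscle cell's switch between a contractile and a dividing state and to macrophage activation, but sequence and expression of such RNAs are poorly conserved between species, so a mouse record does not by itself establish the rat transcript. In bulk tissue such as this, fewer cells of a type and less RNA per cell cannot be told apart.

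Values are log2 intensities minus the array's 75th percentile, so 0 is the level of a bright probe and a step of 1 is a doubling. Probes differ in how brightly they label, so where levels of different probes are compared below, they describe signal and not the amount of RNA. The day 0 arrays varied most: the median SD of a tested MR transcript between replicates was 0.515 at day 0, 0.330 at day 7, 0.197 at day 14 and 0.202 at day 28. Spots of 1 probe on 1 array differed less, with a median SD of 0.0940. Spots marked non-uniform by the scanner software numbered 460 on day 0 replicate 3 and 393 on day 7 replicate 3, which stood apart from the other arrays with 2 to 11. Of the T and NK cell markers, 1 probe, that of Cd3g, was at 5.80 on day 0 replicate 3 and 5.17 on day 7 replicate 3 against -0.58 to 0.61 on the other arrays. Cd4 (-4.78), Cd8a (-1.10), Nkg7 (-3.05), Cd2 (-3.16) and Prf1 (-3.15) had their lowest day 0 value on day 0 replicate 3. Cd3e (-3.01) lay between the other day 0 arrays there, and Gzmb (-5.46) had its highest day 0 value there. The arrays were read in 4 scans. Scan 3 held day 0 replicates 1 and 2 with day 28 replicate 3, scan 4 held day 0 replicate 3, scan 2 held the day 7 arrays with day 14 replicate 1, and scan 1 held the other day 14 and day 28 arrays, so no scan held day 0 together with day 7 or day 14. Among vein markers, 7 of 10 contractile smooth muscle genes and 5 of 8 endothelial genes were tested, and the other 3 of each list had no probe under their symbol.

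MR transcripts gave weaker signals than coding genes. Of the 4407, 2447 were well above background on all 12 arrays and 724 on 0 arrays, and 972 in all missed the minimum of 3 arrays. The tested share was 77.9%, compared with 88.9% of RefSeq coding probes (13625 of 15323). The median level of tested MR transcripts was -3.30 and that of tested coding probes -0.72. On single arrays the share of MR transcripts well above background ran from 64.3% on day 0 replicate 3 to 76.8% on day 7 replicate 2, and 0 of their spots were saturated. At the threshold itself, the 71 transcripts detected on 3 arrays had a median level of -6.80 and the 97 detected on 2 arrays, which were left out, had -6.98. A transcript that passed through bright signal on 1 day alone had to differ between days, so counts are also given for the 2447 measured on every array, a set that in turn leaves out transcripts that fell to background.

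**Figure D1:**
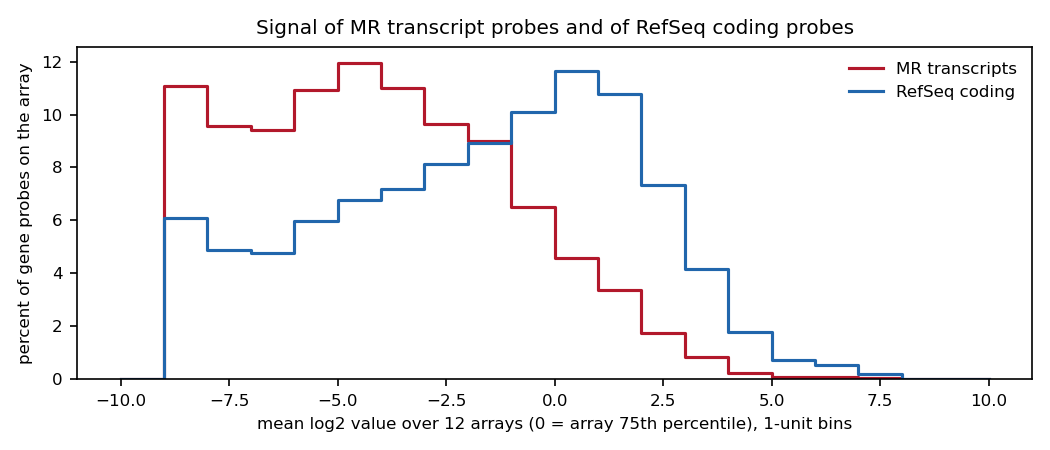
Distribution of mean log2 value over 12 arrays (x axis, 0 is the array's 75th percentile, bins of 1 log2 unit) as percent of gene probes on the array (y axis), for MR transcript probes and RefSeq coding probes, detected or not. The MR curve lies to the left of the coding curve; the tested probes of each had median levels of -3.30 and -0.72.

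Against unoperated vein, MR transcripts that fell outnumbered those that rose on each graft day, while over all probes the reverse held. At day 7, limma called 366 of 3435 MR transcripts higher (10.7%, against 17.7% of all 21063 tested probes) and 578 lower (16.8%, against 15.4%) at adjusted p under 0.05. At day 14 it called 483 higher (14.1%, against 20.1%) and 655 lower (19.1%, against 17.4%). At day 28 it called 355 higher (10.3%, against 17.4%) and 774 lower (22.5%, against 16.5%). The total called was therefore below or near the background on each day (27.5% against 33.1%, 33.1% against 37.5%, 32.9% against 33.9%), and the members stood off from it chiefly in the higher calls and, at day 28, in the lower ones. The share of lower calls among all calls was 61.2%, 57.6% and 68.6% for MR transcripts and 44.6%, 45.3% and 43.8% for coding probes at days 7, 14 and 28. It was 63.9%, 46.0% and 73.1% for ultraconserved region probes (576 tested) and 35.9%, 33.6% and 46.3% for RefSeq non-coding probes (1465 tested). At days 7 and 28 the excess of lower calls was therefore not particular to MR transcripts.

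That split depended on the background correction at day 7. With normexp background correction, 126 MR transcripts were called higher and 111 lower at day 7 (46.8% lower), 121 and 204 at day 14 (62.8% lower), and 99 and 183 at day 28 (64.9% lower). The median change at day 7 was -0.19 for MR transcripts and -0.03 for all tested probes in the main values, but normexp moved both, to 0.56 and 0.44, which turned the order. At day 14 the medians were -0.14 and 0.02, with normexp -0.14 and -0.07. At day 28 they were -0.25 and 0.01, with normexp -0.32 and -0.16, so the MR median lay below that of all probes under both. These medians describe the list and were not tested.

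Lower calls also outnumbered higher ones among transcripts well above background throughout. Of the 2447 MR transcripts measured on all 12 arrays, 243 were called higher (9.93%, against 17.4% of the 16438 such probes) and 474 lower (19.4%, against 16.7%) at day 7. At day 14 the counts were 324 higher (13.2%, against 20.3%) and 550 lower (22.5%, against 19.2%). At day 28 they were 254 higher (10.4%, against 17.6%) and 631 lower (25.8%, against 17.6%). Tested probes were also put in 5 equal brightness bins. In the dimmest, 18.9% of MR transcripts and 13.3% of coding probes were called lower at day 28, and in the brightest 24.3% and 13.8%. In each bin this gap was smaller at days 7 and 14. At day 14 the shares called lower were 12.4% and 12.1% in the dimmest bin and 23.5% and 20.3% in the brightest. In that dimmest bin, 132 MR transcripts were called higher and 131 lower at day 14. At day 7 the shares called lower were 18.5% and 18.5% in the middle bin and 18.6% and 15.7% in the brightest. The difference within bins was not tested.

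Changes of at least 4-fold were fewer. At day 7, 89 MR transcripts rose that far (2.59%, against 6.41% of all probes) and 120 fell that far (3.49%, against 3.91%). At day 14 there were 104 (3.03%, against 6.9%) and 168 (4.89%, against 4.76%). At day 28 there were 72 (2.1%, against 5.54%) and 203 (5.91%, against 4.65%).

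**Figure D2:**
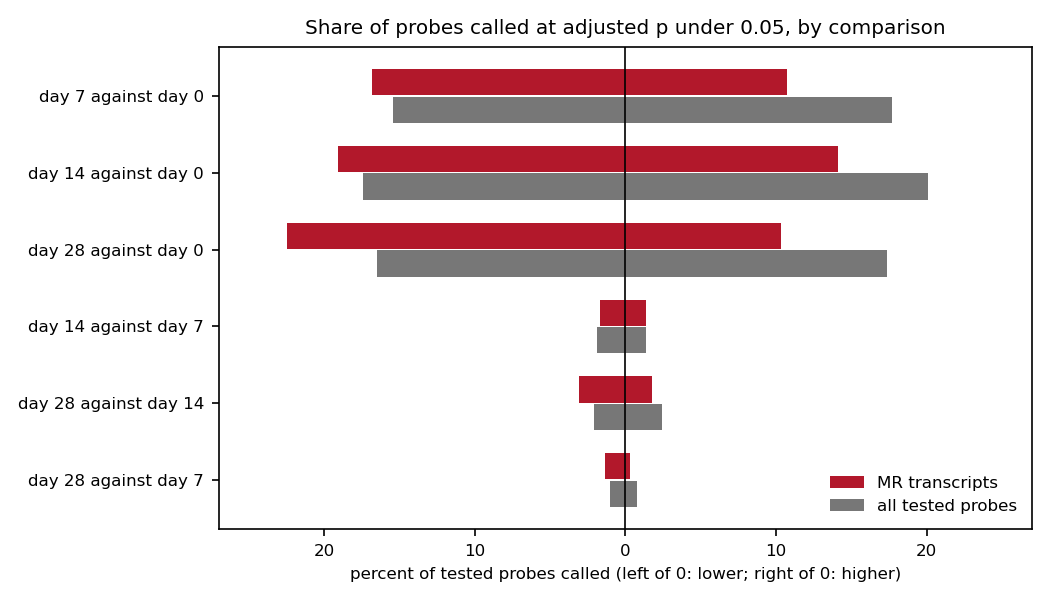
Percent of tested probes called at adjusted p under 0.05 by limma (x axis; higher to the right of 0, lower to the left) in 6 comparisons of days (y axis), for 3435 MR transcripts and all 21063 tested probes. At day 28 against day 0, 22.5% of MR transcripts were called lower and 10.3% higher, against 16.5% and 17.4% of all probes.

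The scans bear on these counts. With the scan as a fixed block, 5 of the 944 MR transcripts called at day 7 stayed called, 120 of 1138 at day 14 and 177 of 1129 at day 28, while 925, 1128 and 1129 of them kept their sign. Scan 3 alone allows day 28 to be set against day 0, with 1 array against 2: all 355 higher calls and 773 of 774 lower calls had the same sign there, with a median of -1.26 for the lower calls against -1.40 over all arrays. These arrays also entered the fit that gave the calls, so a shared sign was favoured in advance and is no separate check. Without the 2 arrays that stood apart, 793 of the 944, 1052 of the 1138 and 1062 of the 1129 stayed called, and the counts were 1222, 1429 and 1557. Leaving out day 28 replicate 1 took the day 28 count to 703.

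The commonest pattern among called MR transcripts was a fall on every graft day, followed by a rise on every graft day. Of the 3435, 370 were called lower on all 3 graft days (10.8%, against 9.18% of all probes) and 220 higher on all 3 (6.4%, against 11.4%), while 1790 were called on none. The next largest patterns were 214 transcripts called lower at day 28 alone and 155 called higher at day 14 alone. For these patterns and for the 1790, the shares over all probes were not counted, so the counts only describe the list. Calls on 1 day only do not show that the days differ. The F test over the 4 days called 1290 (37.6%, against 40.5%). Of these, 54.4% had their highest day mean at day 0 and 32.6% their lowest at day 28, where the shares over all probes called were 41.5% and 19.1%.

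By type of record, lower calls outnumbered higher ones in the AK and uc types and not in the small NR type. AK-type transcripts (2816 tested) had 308 higher and 478 lower calls at day 7 (10.9% and 17.0%, against 17.7% and 15.4% of all probes), 399 and 541 at day 14 (14.2% and 19.2%, against 20.1% and 17.4%), and 294 and 641 at day 28 (10.4% and 22.8%, against 17.4% and 16.5%). The uc type (506 tested) had 44 and 82 (8.70% and 16.2%), 69 and 99 (13.6% and 19.6%), then 45 and 109 (8.89% and 21.5%). The NR type (36 tested) had 7 and 3 (19.4% and 8.33%), 6 and 4 (16.7% and 11.1%), then 9 and 4 (25% and 11.1%), where the higher share at day 7 was near that of all probes. Its medians were 0.20, 0.08 and 0.28 at days 7, 14 and 28, though with normexp the medians at days 14 and 28 turned to -0.02 and -0.05. The difference between classes was not tested.

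The NR class includes both directions. MRNR_002322 stood at -4.74, -4.20 and -4.29 at day 0 and between -3.11 and -2.59 on all 9 graft arrays. It rose by 1.65, 1.80 and 1.55 at days 7, 14 and 28 (SE 0.19, limma adjusted p = 0.000144, 6.94e-05 and 0.000291). MRNR_026574 stood at 3.12, 2.77 and 3.04 at day 0 and between -0.76 and 0.76 on the graft arrays. It fell by 2.83, 3.04 and 2.24 (SE 0.33, limma adjusted p = 0.000172, 8.58e-05 and 0.000859). These 2 were picked after their values were seen.

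Among the transcripts that rose, the largest measured change was that of MRAK132609, an RNA of no stated function. Its day 0 arrays were at -4.60, -4.46 and -5.0, and its day 7 arrays at 2.76, 3.20 and -0.44. The day 14 arrays were at 1.37, 1.82 and 1.07 and the day 28 arrays at 3.09, 3.72 and 1.28. All 9 graft arrays lay above all 3 day 0 arrays, and day 7 replicate 3 was low. The changes were 6.53, 6.11 and 7.38 at days 7, 14 and 28 (SE 0.87, limma adjusted p = 0.00041, 0.000459 and 0.000276), the last being 167-fold. With the scan as a fixed block the changes were 4.32, 3.85 and 5.81, and only the day 28 call held (adjusted p = 0.501, 0.238 and 0.048).

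MRuc007pas and MRuc007pap, whose identifiers differ in the last letter, were both higher on every graft array than on any day 0 array. MRuc007pas was at -3.52, -3.50 and -3.88 at day 0, and at 1.5, 1.72 and 1.29 at day 7. It was at 1.63, 1.61 and 1.78 at day 14 and at 0.33, 0.48 and 0.09 at day 28. The groups did not overlap with day 0, and day 28 lay below both earlier graft days. MRuc007pas changed by 5.14 at day 7 and 5.31 at day 14 (SE 0.19, limma adjusted p = 7.42e-07 and 3.97e-07). MRuc007pap went from -2.54, -2.32 and -3.26 at day 0 to 2.08, 2.09 and 2.05 at day 7, 2.19, 1.87 and 2.28 at day 14, and 0.24, 0.23 and 0.19 at day 28. Its day 14 change was 4.82 ± 0.23 (SE, limma adjusted p = 9.76e-07). Over the 12 arrays the pair correlated at r = 0.985, a value that includes the step from day 0 to the grafts. Whether the 2 records cover 1 transcript was not tested.

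MRuc007pas, MRuc007pap, MRAK012306, MRAK013532 and MRAK053403 were the 5 transcripts that stayed called at day 7 with the scan as a fixed block. Their changes there were 4.77, 4.34, 5.14, 3.98 and 4.25, with limma adjusted p between 0.0250 and 0.0417. MRAK012306 was not well above background on any day 0 array (-7.18, -7.18 and -7.42) and was well above it on all 9 others, at -2.24, -2.39 and -1.82 at day 7, -1.64, -2.29 and -1.43 at day 14, and -3.23, -3.45 and -3.01 at day 28. It was at least 20.5-fold higher at day 7, 26.4-fold at day 14 and 9.69-fold at day 28, where the dimmer group stands at its detection bound (limma adjusted p = 1.21e-06 at day 7). With normexp its day 7 change was 2.21 on the log2 scale, below that bound and still called (adjusted p = 0.00230). MRAK053403 likewise went from -6.20, -6.13 and -5.82 at day 0 to values between -2.03 and -1.12 on every graft array, at least 20.3-fold, 26.6-fold and 18.2-fold higher.

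In all, 23 MR transcripts were below the background criterion on every day 0 array and above it on all 9 graft arrays, and 152 of the tested were below it on every day 0 array. The shares over all probes were not counted, so these counts only describe the list. MRAK034224 (at least 14.5-fold higher at day 7), MRAK160844 (at least 10-fold at day 7), MRAK011597 (at least 10.3-fold at day 7) and MRAK045258 (at least 4.02-fold at day 7) belonged to the 23. With normexp the day 7 changes of MRAK034224 and MRAK160844 were 1.92 and 1.71 on the log2 scale, below their bounds and still called (limma adjusted p = 0.0426 and 0.0444). MRAK142484, well above background on 1 of 3 day 0 arrays and on all graft arrays, went from -7.02, -5.53 and -7.34 to -0.28, -0.23 and -0.21 at day 7. The fitted difference of 6.39 ± 0.53 (limma adjusted p = 2.58e-05) rests on day 0 values mostly not above background, and was 3.26 with normexp (adjusted p = 0.000303). It was lower again at day 28, at -1.80, -1.28 and -2.89. MRAK034213 rose by 4.90 ± 0.40 at day 28 (limma adjusted p = 3.23e-05), from -1.71, -2.73 and -2.40 to 2.76, 3.19 and 1.91.

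Macrophage markers rose in the same grafts. All 10 of 10 were tested, 9 were called higher at day 7, 10 at day 14 and 9 at day 28, and the summed level was 4.37 to 6.31 at day 0, 8.87 to 9.85 at day 7, 9.44 to 9.58 at day 14 and 8.78 to 9.06 at day 28. No macrophage marker was at 0. MRAK012306 followed that sum with r = 0.951 over 12 arrays and 0.812 over the 9 graft arrays, and MRAK053403 with r = 0.954 and 0.227. Of 3362 MR transcripts with a value on every array, 51 reached r = 0.9 or more with the macrophage sum (1.52%, against 3.32% of other tested probes). The part of macrophage RNA in these rises was not tested.

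Of the transcripts that fell, MRuc008egb fell furthest at days 7 and 14. Its day 0 arrays were at 3.00, 3.70 and 3.36. The graft arrays were at -2.47, -2.01 and -5.01 at day 7, -3.67, -2.95 and -3.94 at day 14, and -1.29, -0.89 and -2.02 at day 28. All graft arrays lay well below all day 0 arrays, with day 28 above day 14. The changes at days 7 and 14 were -6.52 and -6.87 (SE 0.67, limma adjusted p = 8.62e-05 and 4.89e-05), or 91.6-fold and 117-fold lower. The day 7 call was lost with the scan as a fixed block (adjusted p = 0.197).

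MRAK003434 was lower on every graft array than on any day 0 array. It was at 3.26, 3.92 and 4.32 at day 0, at -0.43, -0.09 and -1.38 at day 7, at -1.72, -1.67 and -1.76 at day 14, and at 0.29, 0.55 and -0.15 at day 28. The lowest values were those of day 14. Its changes at days 7 and 14 were -4.47 and -5.55 (SE 0.36, limma adjusted p = 2.02e-05 and 5.26e-06). With the scan as a fixed block the day 14 change was -5.87 with adjusted p = 0.0111, and the day 7 change -4.79 with adjusted p = 0.105.

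MRAK046251 fell by 5.39 at day 7 and 5.24 at day 14 (SE 0.80, limma adjusted p = 0.000736 and 0.000667), from -0.20, 0.49 and 0.49 to -4.23, -3.70 and -7.46, then -5.11, -4.30 and -5.53. Both calls were lost with the scan as a fixed block (adjusted p = 0.402 and 0.126). MRuc008lzo fell by 5.30 and 6.11 (SE 0.67) from -0.47, 0.25 and 0.32 to between -6.81 and -4.35 on the day 7 and day 14 arrays. Its day 7 call was lost with the scan as a fixed block (adjusted p = 0.153). MRAK005337, at -0.71, 0.24 and 0.84 at day 0, was not well above background on any day 14 array and was at least 109-fold lower there. MRAK038629 was the 1 transcript detected on all 3 day 0 arrays (-3.53, -2.54 and -2.29) and on no graft array (0 of 9), at least 14.8-fold, 17.4-fold and 19.9-fold lower at days 7, 14 and 28. It passed the detection filter only through its day 0 arrays, so it had to be lower on the graft arrays and no test is given. With normexp its day 7 and day 14 changes were -0.47 and -1.52 on the log2 scale, both smaller than those bounds.

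A single array carried part of other falls. MRAK132214 was at -0.83, -1.30 and 5.82 at day 0 and at -3.55, -3.66 and -3.61 at day 7. Its change of -4.84 ± 1.47 (limma adjusted p = 0.029) became -2.54 without day 0 replicate 3 and lost its call without day 7 replicate 1, 2 or 3 (adjusted p = 0.0712, 0.0696 and 0.0591) or with normexp (0.194). MRAK081751, at -1.01, -0.33 and 3.21 at day 0, changed by -4.19 ± 0.94 at day 7 and by -2.90 without day 0 replicate 3, called in both, but by -2.63 with normexp, not called (limma adjusted p = 0.0969).

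Contractile smooth muscle genes fell in the same samples. All 7 tested of 10 were called lower at days 7 and 14 and 6 at day 28, and the summed level was 9.49 to 10.27 at day 0, 7.34 to 7.82 at day 7, 6.86 to 7.39 at day 14 and 7.64 to 7.87 at day 28, with no marker at 0. Over 12 arrays MRAK003434 followed the sum with r = 0.981, MRAK005337 with 0.962, MRuc008egb with 0.960 and MRAK046251 with 0.938. Within the 9 graft arrays these were 0.860, 0.674, 0.742 and 0.562. Of the 3362 MR transcripts, 112 reached r = 0.9 with this list (3.33%, against 3.67% of other tested probes). Adipocyte genes also fell, with 6 of 7 tested called lower at day 7, 7 at day 14 and 6 at day 28, and a summed level of 6.09 to 6.41 at day 0 and 3.50 to 4.62 on the graft arrays. The part of these cell types in the falls was not tested.

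**Figure D3:**
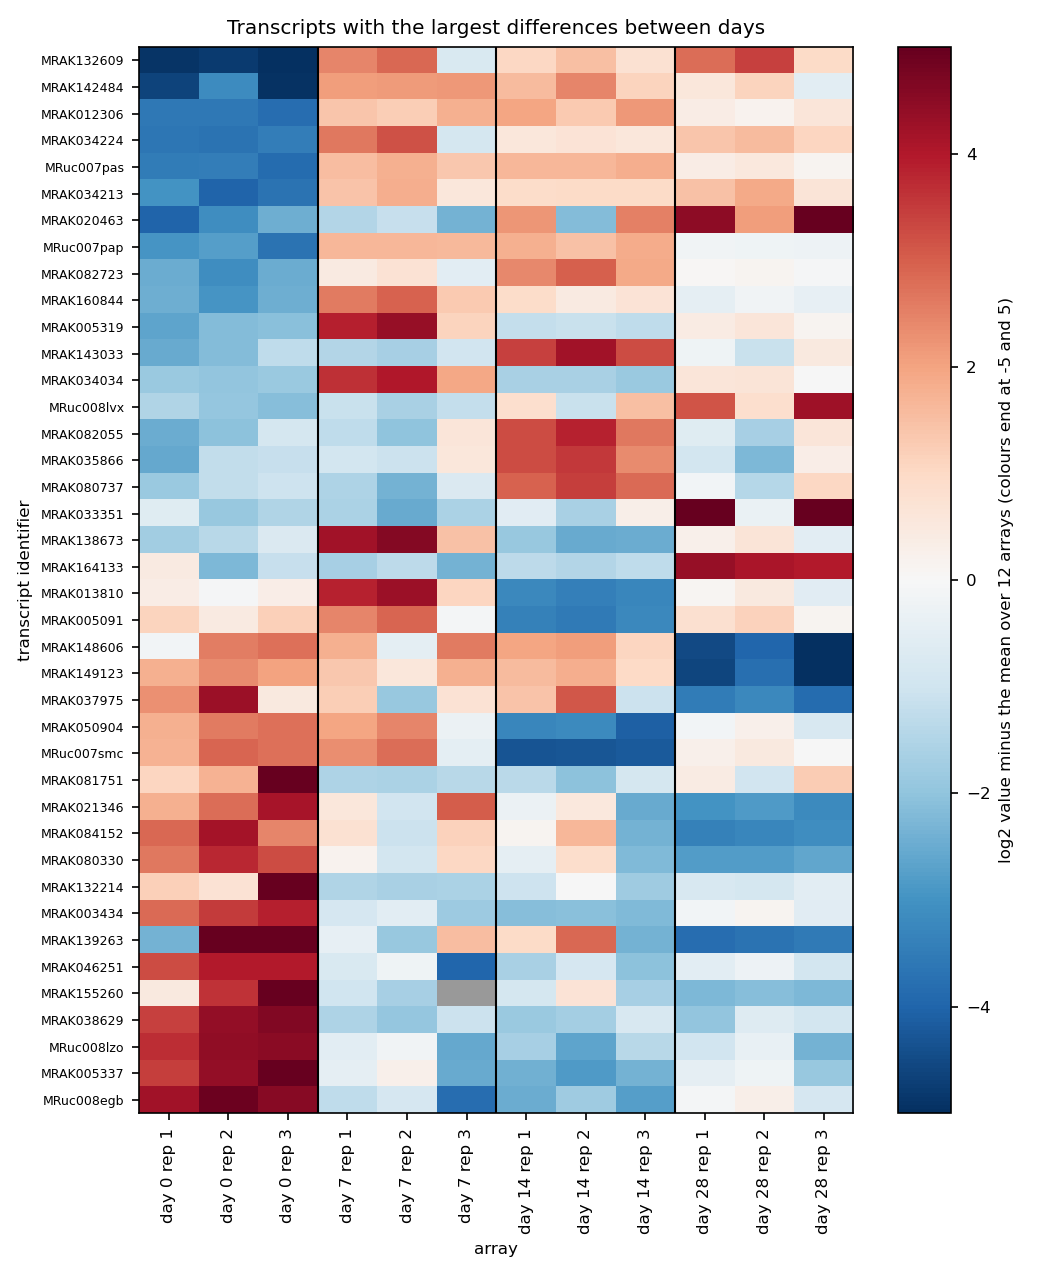
Log2 value minus each transcript's mean over 12 arrays (colour, ending at -5 and 5) for the MR transcripts with the largest rises and falls between days, 1 row each, on the 12 arrays (columns), ordered by the mean of graft arrays less that of day 0. Grey is a missing value. The top rows, led by MRAK132609, are low at day 0, the bottom rows, ending with MRuc008egb, are high there, and rows such as MRAK149123 and MRAK164133 change at day 28.

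MRAK149123 was lower at day 28 than at days 0, 7 and 14. It is among the probes with the strongest signals (above 99.7% of tested probes), with day 0 arrays at 8.44, 9.01 and 8.66. It was at 8.01, 7.23 and 8.46 at day 7 and at 8.24, 8.47 and 7.66 at day 14, but at 2.08, 2.88 and 0.77 at day 28. The 9 arrays of the first 3 groups overlapped with one another and lay far above day 28. The day 28 change was -6.79 ± 0.50 against day 0 (limma adjusted p = 1.92e-05), -6.21 against day 14 (adjusted p = 0.000656) and -5.99 against day 7 (adjusted p = 0.00148). Within scan 3 the difference from day 0 was -7.96 and within scan 1 the difference from day 14 was -5.58. The call against day 7 was lost with the scan as a fixed block (adjusted p = 0.667).

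MRAK148606 had a like course over the 12 arrays (r = 0.967 with MRAK149123). It was at 6.24, 8.93 and 9.15 at day 0, 8.15, 5.90 and 8.98 at day 7, 8.36, 8.46 and 7.47 at day 14, and 1.88, 2.40 and 0.69 at day 28. Its day 28 change was -6.45 ± 0.91 against day 0 (limma adjusted p = 0.000705) and -6.44 against day 14 (adjusted p = 0.00551). Against day 7 the difference was -6.02 with adjusted p = 0.0137, which rose to 0.0747, 0.0782 and 0.063 without day 7 replicate 1, day 28 replicate 1 or day 28 replicate 3. Its calls against days 14 and 7 were lost with the scan as a fixed block (adjusted p = 0.0779 and 0.995).

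Other day 28 falls had even day 28 values beneath scattered earlier ones. MRAK080330 was at 3.4, 4.54 and 4.01 at day 0, 0.95, -0.15 and 1.79 at day 7, 0.31, 1.65 and -1.43 at day 14, and -2.03, -2.04 and -1.84 at day 28, a day 28 change of -5.95 ± 0.70 (limma adjusted p = 0.000267). MRAK084152 ran from 3.20, 4.49 and 2.75 at day 0 to -3.07, -2.94 and -2.80 at day 28, a change of -6.42 ± 0.92 (adjusted p = 0.000757). MRAK021346 ran from 5.87, 6.88 and 8.24 to 1.11, 1.27 and 0.91, a change of -5.90 ± 1.02 (adjusted p = 0.00203). In these 3 the day 7 and day 14 arrays lay above those of day 28 on every array, and MRAK080330 was already below its day 0 arrays at days 7 and 14. With the scan as a fixed block the day 28 calls of MRAK084152 and MRAK021346 were lost (adjusted p = 0.0522 and 0.0955) and that of MRAK080330 was kept (0.0409).

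MRAK037975 was at 0.54, 2.52 and -1.27 at day 0 and at -5.23, -4.98 and -5.58 at day 28, a change of -5.86 ± 1.20 (limma adjusted p = 0.00458). MRAK155260, whose day 7 replicate 3 value is missing and was left out of its fit, was at 1.05, 4.18 and 7.65 at day 0 and at -1.70, -1.54 and -1.70 at day 28, a change of -5.94 ± 1.34 (adjusted p = 0.00892). MRAK139263 spread most, at -2.09, 5.78 and 7.49 at day 0 and -3.55, -3.41 and -3.26 at day 28. Its change of -7.14 ± 2.16 (adjusted p = 0.0281) lost its call without day 0 replicate 2 or 3 or without any of the 3 day 28 arrays (adjusted p from 0.0646 to 0.0878) or with normexp (0.0545). With the scan as a fixed block the calls of MRAK037975, MRAK155260 and MRAK139263 were all lost (adjusted p = 0.0651, 0.118 and 0.362).

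The clearest rise at day 28 was that of MRAK164133. It was at -0.23, -2.93 and -1.85 at day 0, at -2.35, -1.99 and -3.04 at day 7, at -1.99, -2.15 and -1.93 at day 14, and at 3.67, 3.4 and 3.30 at day 28. The day 28 arrays lay above all 9 others, which overlapped. The differences were 5.12 ± 0.55 from day 0 (limma adjusted p = 0.000157), 5.48 from day 14 (adjusted p = 0.0012) and 5.92 from day 7 (adjusted p = 0.00203). Within scan 3 the difference from day 0 was 4.88, and within scan 1 that from day 14 was 5.57. The call against day 7 was lost with the scan as a fixed block (adjusted p = 0.857).

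MRAK020463, MRAK033351 and MRuc008lvx were also higher at day 28, array by array with fast skeletal muscle genes. MRAK020463 was at -7.65, -6.75 and -6.07 at day 0, -5.11, -4.79 and -6.01 at day 7, -1.42, -5.81 and -1.11 at day 14, and 0.81, -1.55 and 1.80 at day 28. It was at least 98.1-fold higher at day 28 than at day 0 (limma adjusted p = 0.00166), and with normexp the change was 3.91 on the log2 scale, below that bound and still called (0.0234). Day 14 replicate 2 and day 28 replicate 2 were the low arrays of their groups.

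MRAK033351 was not well above background at day 0 or day 7 and was at -1.05, -6.76 and 0.05 at day 28, detected on 2 of these 3 arrays and on 1 day 14 array. It passed the detection filter only through those 3 arrays, so it had to be higher there and no test is given. MRuc008lvx was at -7.18, -7.59 and -7.79 at day 0 and -2.54, -4.84 and -1.42 at day 28, at least 11.9-fold higher. It was detected on all 3 day 28 arrays and 2 day 14 arrays alone and passed the filter only with those of day 28, so here too no test is given. With normexp the day 28 changes of MRAK033351 and MRuc008lvx were 1.93 and 1.21 on the log2 scale, the latter below its bound.

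All 8 skeletal muscle markers were tested, and 3 were called higher at day 14 and 7 at day 28. Their summed level was 3.97, 3.97 and 4.22 at day 0, 4.48, 4.68 and 3.81 at day 7, 6.0, 3.92 and 6.39 at day 14, and 8.78, 5.77 and 9.65 at day 28. No marker was at 0. Over the 12 arrays MRAK020463 followed that sum with r = 0.948, MRAK033351 with 0.947 and MRuc008lvx with 0.971, and these 3 were the MR transcripts at or above 0.9 (0.0892% of 3362, against 0.294% of other tested probes). Within the 9 graft arrays the 3 followed the muscle sum with r = 0.961, 0.962 and 0.975. There they also followed the adipocyte sum (0.939, 0.814 and 0.931) and the endothelial sum (0.911, 0.883 and 0.918). Over the 12 arrays those were -0.360, -0.026 and -0.269, and -0.139, 0.219 and -0.035. MRAK149123 and MRAK148606, which fell at day 28, ran opposite to the muscle sum. Their r was -0.873 and -0.817 over the 12 arrays, and -0.846 and -0.819 over the 9 graft arrays. MRAK164133, which rose, had r = 0.777 and 0.795 with it. MRAK033351 and MRuc008lvx passed the detection filter only through arrays where they were high. Their r values set these arrays against values at background and are no separate support. The part of muscle tissue around the vessel in any of these differences was not tested.

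**Figure D4:**
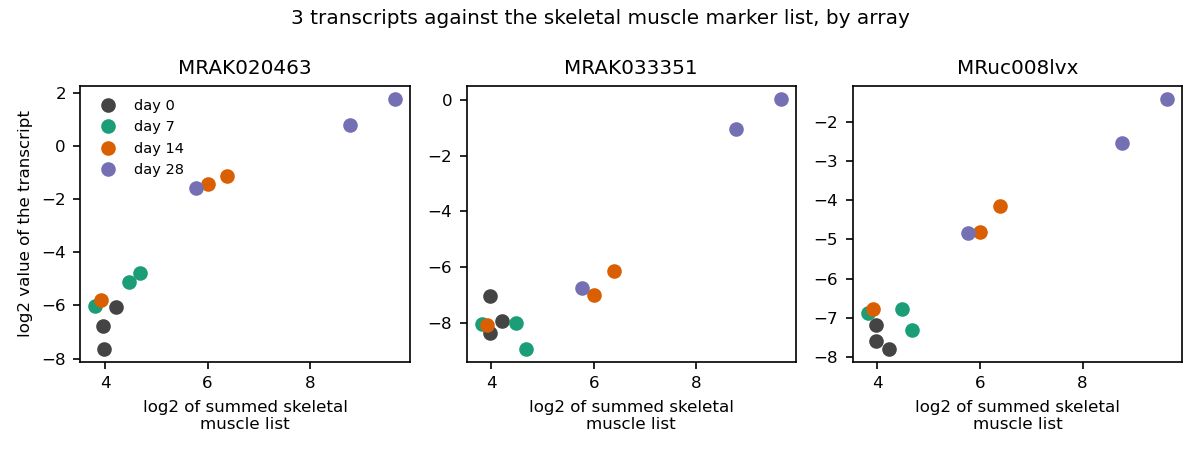
Log2 value of MRAK020463, MRAK033351 and MRuc008lvx (y axes) against the log2 summed signal of 8 skeletal muscle markers (x axes), 1 point per array, coloured by day. The 2 highest points in each panel are day 28 replicates 1 and 3, with marker sums of 8.78 and 9.65.

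In the main fit, fewer calls were made between graft days than against day 0. Between days 7 and 14, 46 MR transcripts were called higher at day 14 (1.38% of all probes were) and 57 lower (1.88%), together 103 or 3% against 3.26%. Between days 14 and 28, 61 were called higher at day 28 (2.4% of all probes) and 107 lower (2.08%), together 4.89% against 4.48%. Between days 7 and 28, 11 were called higher (0.75%) and 46 lower (1.03%), together 1.66% against 1.78%. The total shares are near the background. The share of lower calls from day 14 to day 28 was 63.7%, but 52.4% with quantile normalization, and from day 7 to day 28 it was 80.7%, but 69.0% with quantile normalization and 66.2% in the authors' table. From day 7 to day 14 it was 55.3%, and 42.9% with normexp. The main fit shares 1 spread over all days, and the day 0 arrays varied most. With only the arrays of the days compared, 122, 1080 and 29 MR transcripts were called for days 14 against 7, 28 against 14 and 28 against 7. Days 7, 14 and 28 against day 0 then gave 338, 812 and 713. So calls between graft days were not fewer in every fit. Shares over all probes were not counted there.

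These counts move with single arrays. The 103 calls between days 7 and 14 ranged from 38 without day 14 replicate 1 to 199 without day 0 replicate 3, with 193 without day 7 replicate 3, 43 without day 7 replicate 1 or 2, 56 without day 14 replicate 2 and 42 without day 14 replicate 3. The 168 between days 14 and 28 were 26, 45 and 46 without day 14 replicates 1, 2 and 3, 27, 49 and 96 without those of day 28, 88 and 370 without day 7 replicates 1 and 3, and 281 and 336 without day 0 replicates 1 and 3. The 57 between days 7 and 28 were 6 and 15 without day 28 replicates 1 and 3, 9 without day 7 replicate 1, 30 without day 14 replicate 1, and 89 and 101 without day 0 replicates 1 and 3. Within scan 2, all 46 and 57 calls between days 7 and 14 kept their sign, as did all 61 and 107 between days 14 and 28 within scan 1. The arrays of these scans also gave the calls, so the shared sign is no separate check. No scan held days 7 and 28 together.

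Day 14 had its own high transcripts. MRAK143033 was at -6.30, -5.93 and -5.04 at day 0, -5.23, -5.43 and -4.74 at day 7, -0.34, 0.45 and -0.51 at day 14, and -3.99, -4.87 and -3.30 at day 28. Day 14 lay above all other arrays. It was 5.62 ± 0.45 above day 0 (limma adjusted p = 1.62e-05) and 5.0 above day 7 (adjusted p = 0.000485), and within scan 2 the latter was 4.79. With normexp the difference from day 7 was 2.24 and not called (adjusted p = 0.275). MRAK080737, a bright probe, was at 1.72, 2.35 and 2.53 at day 0, 2.03, 1.21 and 2.85 at day 7, 6.50, 7.02 and 6.40 at day 14, and 3.43, 2.13 and 4.59 at day 28. It was 4.61 ± 0.58 higher at day 14 than at day 7 (adjusted p = 0.00233), a call lost with the scan as a fixed block (0.0871).

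MRAK082055 was at 1.91, 2.46 and 1.28 at day 14 and at -2.62, -3.39 and -0.77 at day 7, a difference of 4.14 ± 0.75 (limma adjusted p = 0.0157) that was no longer called without day 7 replicate 1 or 2 or day 14 replicate 1 or 2 (adjusted p = 0.077, 0.064, 0.0686 and 0.0585), with normexp (0.0723) or with the scan as a fixed block (0.221). MRAK035866 was at -1.80, -1.56 and -2.71 at day 14 and 4.01 lower at day 28 (adjusted p = 0.0129), a call lost without day 14 replicate 1 or 2 or day 28 replicate 1 (adjusted p = 0.0682, 0.0534 and 0.0627), with normexp (0.289) or with the scan as a fixed block (0.0625). MRAK082723 was below background at day 0 and at least 12.5-fold higher at day 14, at -2.88, -2.31 and -3.38. With normexp its day 14 change was 1.25 on the log2 scale, below that bound and not called (limma adjusted p = 0.237).

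Other transcripts dropped out at day 14. MRuc007smc, MRAK050904, MRAK013810 and MRAK149173 were the 4 that were not well above background on any day 14 array and were so on all other arrays. MRuc007smc was at -2.54, -1.34 and -1.50 at day 0, -1.94, -1.45 and -4.77 at day 7, -8.58, -8.53 and -8.45 at day 14, and -3.99, -3.76 and -4.29 at day 28. It was at least 34.6-fold lower at day 14 than at day 0 (limma adjusted p = 7.37e-05), at least 18.2-fold lower than at day 7 and, from day 14 to day 28, at least 7.43-fold higher. These calls were lost with the scan as a fixed block (adjusted p = 0.0532, 0.164 and 0.0955). With normexp the changes were -2.14, -1.98 and 0.64 on the log2 scale, and the call against day 0 alone held (adjusted p = 0.0194, 0.241 and 0.918). MRAK050904 was at least 28.5-fold lower than at day 0, MRAK149173 at least 11.9-fold and MRAK013810 at least 6.26-fold. MRAK005091, detected throughout, was at -5.22, -5.38 and -5.09 at day 14 and 4.09 ± 0.65 higher at day 28 (adjusted p = 0.00943). That call was lost without day 14 replicate 1 or day 28 replicate 1 (adjusted p = 0.050 and 0.0523), with normexp (0.0941) or with the scan as a fixed block (0.0839). The counterpart at day 28 was MRAK013239, the 1 transcript below background on day 28 alone, at least 10.6-fold lower than at day 0. No transcript was below background on day 7 alone (0 of 3435).

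Day 7 peaks were present as well. MRAK005319, below background at day 0 (-6.71, -6.25 and -6.19), was at -0.19, 0.27 and -2.99 at day 7, at -5.28, -5.21 and -5.36 at day 14 and at -3.69, -3.48 and -3.96 at day 28. Day 7 lay above every other array, and replicate 3 of that day was low. It was at least 36.2-fold higher at day 7 than at day 0 (limma adjusted p = 0.000241). With normexp that change was 2.56 on the log2 scale, below the bound and still called (adjusted p = 0.00694). The call was lost with the scan as a fixed block (0.356). MRAK034034 was below background at days 0 and 14 and at -2.38, -2.00 and -4.07 at day 7, at least 12.9-fold above day 0. It passed the detection filter only with its day 7 arrays, so it had to be higher there and no test is given. With normexp its day 7 change was 1.82 on the log2 scale, below that bound. MRAK138673 was at -1.88, -1.48 and -4.59 at day 7, at least 14.4-fold above day 0 and, at day 14, at least 19.1-fold lower. That difference was not called with normexp (-2.00, limma adjusted p = 0.196) or with the scan as a fixed block (0.164). In MRAK034224, MRAK005319, MRAK034034 and MRAK138673, day 7 replicate 3, 1 of the 2 arrays that stood apart, was the lowest of its day.

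**Figure D5:**
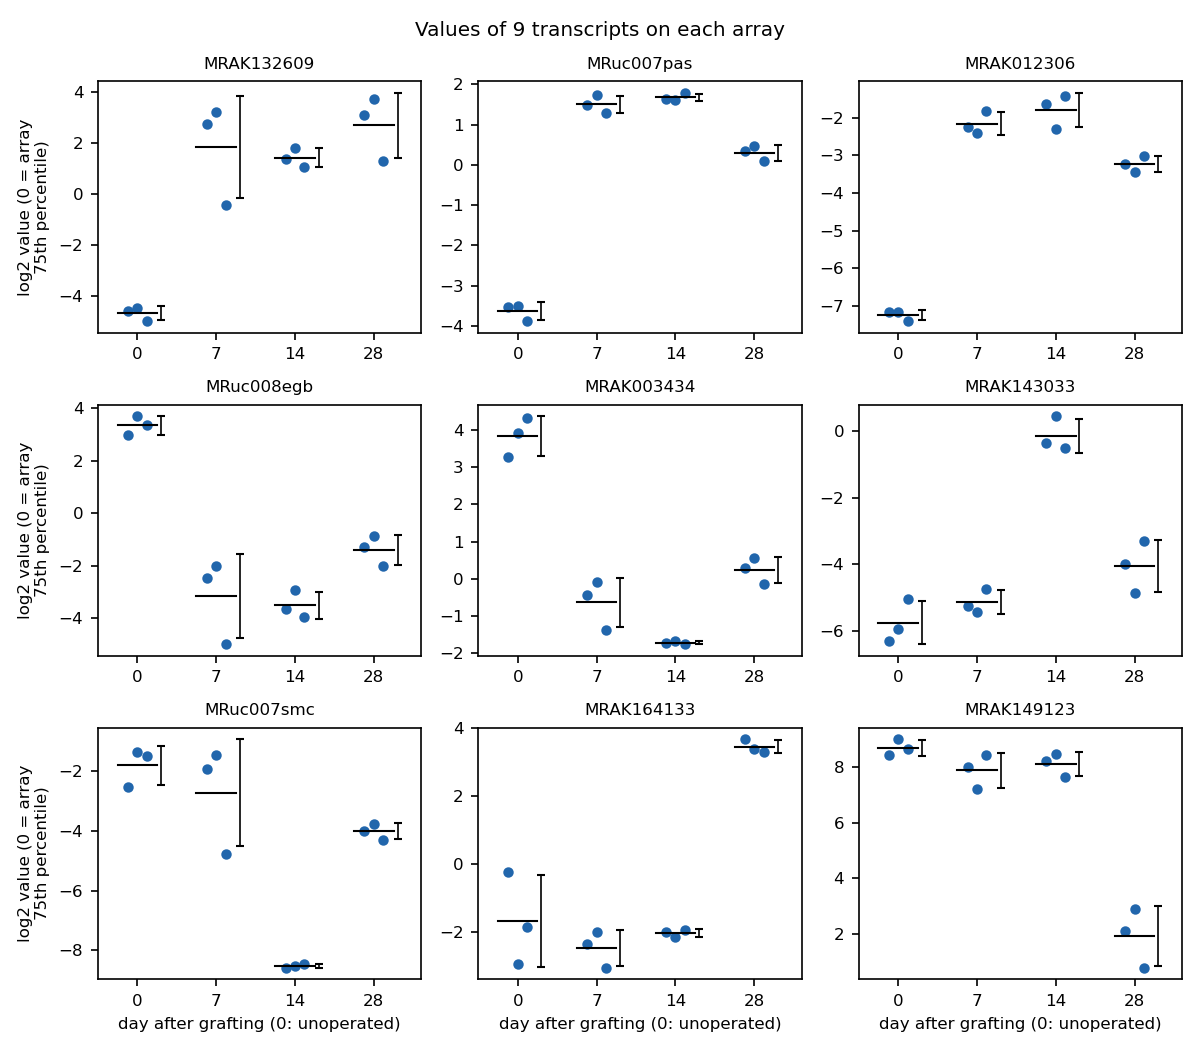
Log2 values (y axes, 0 is the array's 75th percentile) of 9 MR transcripts on each array by day after grafting (x axes); points are arrays, the long bar is the mean of 3 and the error bar 1 SD. The upper row rises after day 0, MRuc008egb and MRAK003434 fall, MRAK143033 is high and MRuc007smc low at day 14, and MRAK164133 and MRAK149123 change at day 28.

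Opposite calls against day 0 on different graft days were rare, in 6 MR transcripts (0.175%, against 0.204% of all probes): MRAK013810, MRAK018080, MRAK078045, MRAK080598, MRAK159011 and MRAK171181. All of these comparisons share the day 0 arrays. MRAK013810 was at -4.10, -4.53 and -4.15 at day 0, -0.62, -0.19 and -3.42 at day 7, -7.70, -7.89 and -7.72 at day 14, and -4.39, -3.98 and -5.05 at day 28. It rose by 2.85 at day 7 (limma adjusted p = 0.00918), dropped to its detection bound at day 14 and was near its day 0 level at day 28 (change -0.21, adjusted p = 0.828). From day 7 to day 14 it was at least 45.3-fold lower, a difference not called with normexp (-2.55, adjusted p = 0.0804) or with the scan as a fixed block (0.112). MRAK018080 changed by 1.37, 1.97 and -0.92 at days 7, 14 and 28 (adjusted p = 0.00297, 0.000284 and 0.0211).

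Of the 8 strongest MR signals, which include MRAK149123 and MRAK148606, MRNR_003557 and MRuc007hrz varied little. MRNR_003557 ran from 5.77 to 6.52 and MRuc007hrz from 5.21 to 6.06, with no call against day 0. MRAK154943 lay between 7.26 and 8.30 on all 12 arrays, with changes of -0.48, -0.23 and -0.61 at days 7, 14 and 28, the last called (limma adjusted p = 0.0243). MRBC052873 lay between 6.43 and 8.47 and was lower at day 28 by 1.58 (adjusted p = 0.00513).

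MRNR_004446 was at 4.95, 4.83 and 5.74 at day 0 and 6.49, 6.24 and 6.67 at day 7, a rise of 1.29 ± 0.24 (limma adjusted p = 0.0026). MRAK078618 was high on the arrays that stood apart, at 8.75 on day 0 replicate 3 and 9.0 on day 7 replicate 3 against 5.40 to 6.66 on the 10 others, and was called on no graft day.

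The steadiest day means among transcripts measured on every array were those of MRBC062110, MRAK136268, MRAK078157, MRAK082962 and MRAK019277, whose 4 day means spanned 0.0531 to 0.0971. Replicates of a day spread more than that: MRBC062110 was at -0.67, -1.57 and -2.33 at day 0, and MRAK082962 at 1.55, 1.59 and 0.15. MRAK019277 stayed between -1.74 and -1.22 on all 12 arrays.

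Coding genes with the most similar course were sought among 12480 coding probes with 1 symbol, by Pearson r over the 12 arrays, which share the step from day 0 to the grafts. MRAK012306 came closest to Il10ra, a subunit of the interleukin-10 receptor (r = 0.995, and 0.956 over the 9 graft arrays), followed by Cd83 (0.993) and Itgad (0.992). MRAK142484 came closest to Qrfpr (0.991), MRAK132609 to Tmem30b (0.988) and MRAK034224 to Bmp3 (0.982).

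Among the falling transcripts, MRuc008egb came closest to Tns2, a focal adhesion protein (r = 0.995), then Cacna1c, the pore subunit of a calcium channel of muscle (0.993), and Id4 (0.992). MRAK046251 came closest to Mylk3 (0.991), then Fermt2 (0.990) and Actg2, an actin of smooth muscle (0.987). MRAK005337 came closest to Sema5a (0.991), MRuc008lzo to Ccl27 (0.984) and MRAK038629 to Mmp27, a metalloproteinase (0.988, but 0.553 over the 9 graft arrays, where the transcript was at background).

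Of the transcripts specific in time, MRAK143033 came closest to Pamr1 (r = 0.993) and MRuc007smc to Gnao1, a G protein subunit of neurons (0.969), and Bcan, a brain proteoglycan (0.964). MRAK020463 came closest to Myl1, a myosin light chain of fast muscle (0.992), and Nrap (0.986), and MRAK033351 to Mlf1 (0.980), Pgam2 (0.977) and Eno3 (0.962). MRAK033351 was at background on most arrays and passed the filter only through those where it was high. MRAK164133 came closest to Enpep, an aminopeptidase (0.974). MRAK149123 had no such close course, with 0.943 at most, and MRAK148606 reached 0.968 with Rexo4. The values rest on 12 arrays and the best of 12480 probes, and describe likeness alone.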

How the data were processed

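Per the file headers, Agilent Feature Extraction 11.0.1.1 made the scanner tables, whose linear spot intensity is already background-corrected, for a design annotated on rn4. A second table from the authors holds log2 values for 24529 features, judged log2 from the values, whose normalization and common centre (column medians 7.149 to 7.153) stay unknown. Each of its columns correlated with its own array at r from 0.9936 to 0.9992. Each array held 42136 gene spots and 1417 control spots. Control spots and 7348 outlier spots were removed, so that 478 probe values were missing, 88 of them of MR transcripts. The array's 75th percentile (494 to 991) was subtracted on the log2 scale of processed intensity, and spots were averaged. A probe counted as well above background where at least 50% of its kept spots did, and was tested with 3 such arrays.

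A linear model of the 4 days was fitted by limma 3.58.1 (R 4.3.3) to 21063 probes on 12 arrays (8 residual and 2.32 prior degrees of freedom), with Benjamini-Hochberg adjustment over all of them. A bound ("at least N-fold") sets the brighter group's mean against the mean, over arrays of the group not above background, of its value or, if higher, the dimmest detected probe's value. In a test on simulated day 7 data, 10, 33, 44 and 47 of 50 probes changed by 1, 2, 3 and 4 log2 units were called, with 11 false calls among 20685 probes. Far fewer probes were changed there than were called in the data, and each probe had 1 SD on all days. These rates therefore do not give the power in the data. Transcripts were named by rule: the 8 largest rises and 8 largest falls against day 0 on each graft day and the 3 of each between graft days, among calls without overlap of arrays; the 8 strongest signals; the 5 steadiest; those below background on 1 day alone; and for likeness the 3 closest coding probes of the 4 largest changes. The members, marker lists and rules were chosen with earlier results of these data known. Alternatives were normexp (offset 50, on the median signal, chosen after the data were seen), quantile normalization, the authors' table, other detection filters, the scan as a block, array weights, and fits on fewer arrays. Number of arrays limits the precision. Tables and plots were made in Python 3.11.15 (pandas 2.3.3, NumPy 2.4.6, Matplotlib 3.10.9).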

Additional observations from a re-analysis of the deposited data

Results flagged for a closer look

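Each result here is a difference between 2 graft days in the change from day 0, called by limma on all 12 arrays; the 18 follow from the choice of the largest such differences, and values at background are measured values and no folds. From day 7 to day 14 the change from day 0 rose by 5.0 for MRAK143033, 4.61 for MRAK080737 and 4.14 for MRAK082055. Over the same days it fell by 6.37 for MRAK013810, by a difference of -5.80 for MRuc007smc and of -5.71 for MRAK138673, all 3 below background at day 14.

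From day 14 to day 28 the difference was 5.48 for MRAK164133, 4.50 for MRuc007smc and 4.09 for MRAK005091. It was -6.44 for MRAK148606, -6.21 for MRAK149123 and -4.01 for MRAK035866.

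From day 7 to day 28 the difference was 5.92 for MRAK164133, 5.66 for MRAK020463 and 4.05 for MRuc008lvx, and it was -6.02 for MRAK148606, -5.99 for MRAK149123 and -3.29 for MRAK138673. Of these, the calls of MRAK164133 and MRAK149123 held without any single array, with adjusted p of at most 0.0185 and 0.0148. With the scan as a fixed block they were lost (adjusted p = 0.857 and 0.667), as were those of MRAK020463, MRAK148606 and MRAK138673 (0.995 each). The call of MRAK020463 was lost without day 0 replicate 2, any day 7 array, day 14 replicate 1 or 3, or day 28 replicate 1 or 3, with adjusted p up to 0.188. MRuc008lvx passed the detection filter only with its day 28 arrays, so it had to be higher there and no test of its difference is given. The call of MRAK138673 was lost without day 0 replicate 2, day 7 replicate 1 or 2, or any day 14 or day 28 array, with adjusted p up to 0.174. Groups of 3 arrays are too small for an outlier test.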

How the results depend on the processing

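No paired analysis was possible because every sample carries the same replicate number in the labels; the numbers used here only name arrays. Counts of MR transcripts called are given in the order day 7, 14 and 28 against day 0, then 14 against 7, 28 against 14, 28 against 7, and the F test, where the main counts were 944, 1138, 1129, 103, 168, 57 and 1290. With normexp they were 237, 325, 282, 7, 11, 8 and 306. With the scan as a fixed block they were 5, 123, 185, 6, 21, 0 and 121; the 5 were all higher, and for the count of 0 in limma 101 passed at unadjusted p under 0.05. Array quality weights gave 1610, 1920, 2095, 2784, 2935 and 2284 where the count moved by over 1.5 times (day 7, day 28, the 3 graft-day comparisons and the F test), but day 7 replicate 1 had a weight of 86.8 and day 0 replicate 3 one of 0.0795. With only the arrays of the days compared, day 7 gave 338, day 28 gave 713, day 28 against 14 gave 1080 and day 28 against 7 gave 29; the F test has no such value. Without the 2 arrays with many non-uniform spots the graft-day counts were 386, 821 and 143. Requiring detection on all 12 arrays gave 49 for day 14 against 7 and 32 for day 28 against 7, where fewer probes were tested, and the scan as a random block gave 23 for the latter. Leaving out 1 array gave 662 to 1139, 766 to 1318, 703 to 1321, 38 to 199, 26 to 370, 6 to 101 and 903 to 1477. Where no construction above shows it, the cause was not tested. Of 66 named changes 0 turned direction; the call was lost by 20 with normexp, by 39 under the fixed block, by 7 where only 2 days entered the fit, and by 0 to 8 without 1 array. With 3 arrays per day, the simulated test called 10 of 50 changes of 1 log2 unit, in a setting with far fewer changed probes than the data.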
